A study of Mus musculus with 24 samples.

Results

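Bdnf, 1 of 18194 genes named on the array, encodes brain-derived neurotrophic factor. All probe sets annotated to it were taken, which are 2 of 45101, 1422168_a_at and 1422169_a_at. A probe set is a group of short probes whose brightness is summarized as 1 intensity, and values here are log2 of that intensity. The mouse gene spans chr2:109674700-109727043 in GRCm38.p6, on the forward strand, and RefSeq lists 12 transcripts for it. The annotation used here gives no position for the probes, so which of these transcripts each probe set reads was not analysed here.

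The arrays hold messenger RNA of neurons grown from C57Bl/6 mouse embryos of embryonic day 14 that were wild type (WT) or knockout (KO) littermates for Npas4, a transcription factor induced by neuronal activity. The neurons came from the medial ganglionic eminence (MGE), a source of inhibitory neurons, or from the cortex (CTX). All cultures, the 0 h ones included, were silenced overnight with tetrodotoxin, a sodium channel blocker, and AP-5, an NMDA receptor blocker, and RNA was taken after 0, 1 or 6 h in 55 mM KCl, which depolarizes neurons. Each of the 12 groups of cell type, genotype and time has 2 arrays, called repeats 1 and 2. The labels do not say which part of Npas4 is deleted, how many embryos a culture pooled or whether repeats are separate cultures, so p-values measure the spread between these arrays, which may be technical. For each probe set this spread was estimated over all 12 groups together.

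As background, neurons make the BDNF protein as a precursor that is cut by proteases, packed into dense core granules and released, and it acts mainly through the receptor TrkB, encoded by Ntrk2. The gene has several alternative promoters, each with its own first exon spliced to a shared coding exon. In cortical neurons depolarization and calcium entry switch some of these promoters on through transcription factors such as CREB, MEF2, SRF and Npas4, and excitatory neurons are the main neuronal source of the protein in the cortex.

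RefSeq start sites gave 7 promoter windows for Bdnf, each from 250 bases before to 50 bases after a start. The windows were searched on both strands for TGACGTCA, the full cAMP response element (CRE) bound by CREB, the shorter CRE core CGTCA, the E-box CACGTG, and TCGTG, the core bound by Npas4 with its partner Arnt. The full CRE was in 0 of the 7 Bdnf windows, against 1.79% of 32851 windows of all genes. The CRE core was in 1 of 7, against 20.8%, TCGTG in 3 of 7, against 16%, and CACGTG in 0 of 7, against 7.15%. The CRE core letters are part of the full CRE. Windows 1 and 3 are shown because each holds 2 TCGTG matches and window 3 also the only CRE core, while window 2, not shown, holds 1 TCGTG match, from base 267. Matches are in capitals, including CACGA, which is TCGTG on the other strand.
Bdnf window 1, chr2:109674450-109674749, forward strand: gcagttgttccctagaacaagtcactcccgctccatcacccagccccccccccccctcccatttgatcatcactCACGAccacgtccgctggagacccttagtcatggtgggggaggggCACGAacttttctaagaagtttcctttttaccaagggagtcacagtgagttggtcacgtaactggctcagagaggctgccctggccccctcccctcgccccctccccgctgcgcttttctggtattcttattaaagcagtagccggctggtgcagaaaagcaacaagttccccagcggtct
Bdnf window 3, chr2:109692186-109692485, forward strand: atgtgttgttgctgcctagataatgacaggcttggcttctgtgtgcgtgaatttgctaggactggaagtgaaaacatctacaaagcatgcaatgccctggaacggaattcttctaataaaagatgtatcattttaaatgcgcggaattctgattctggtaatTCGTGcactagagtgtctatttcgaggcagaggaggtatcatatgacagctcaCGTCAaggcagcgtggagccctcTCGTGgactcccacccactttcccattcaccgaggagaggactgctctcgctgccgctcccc
Window 1 held TCGTG on the other strand from bases 75 and 120 of the window. Window 3 held it from bases 163 and 239, with the CRE core from base 216, read as CGTCA, between them. A match describes letters in the window and is not evidence of binding.

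Array medians lay between 115 and 121 intensity units (log2 6.85 to 6.92), and 26335 probe sets, both Bdnf ones included, exceeded the median of their array on 2 arrays or more and were tested. Across all probe sets the repeats of a group correlated at 0.990 to 0.996 in 10 groups, at 0.982 in MGE WT at 0 h, where 3222 probe sets were over 2-fold apart, and at 0.985 in CTX WT at 6 h, where 2411 were. The difference between probes at the 3' and 5' ends of control transcripts, a sign of RNA quality, lay between 0.44 and 0.66 (log2) for actin and 0.54 and 0.70 for Gapdh. The labels of the cultures were checked with marker genes. Excitatory neuron markers averaged log2 6.32 to 7.04 over the MGE arrays and 10.87 to 11.28 over the CTX arrays (11 genes), with 2 to 4 of the 11 above the array median in an MGE array and 10 of 11 in a CTX array. Neurod6, Tbr1, Slc17a7, Neurod2, Emx1 and Fezf2 were above it in 0 of 12 MGE arrays and in 12 of 12 CTX arrays. Slc17a6, another glutamate transporter gene, was above it in 6 of 12 MGE arrays (3.60 to 8.53), Nrn1 in 2 of 12, and both in all CTX arrays. Bcl11b and Cux2, transcription factor genes of the same list, went the other way: they were above the median in all 24 arrays and read 12.83 to 13.39 and 13.21 to 13.79 in MGE against 12.36 to 13.09 and 11.54 to 12.69 in CTX arrays. Eomes was below the median in all 24 arrays. Interneuron markers averaged 10.66 to 11.28 in MGE and 8.77 to 9.41 in CTX arrays (15 genes). Calb2 of this list went the other way, at 6.68 to 8.15 in MGE and 9.885 to 10.93 in CTX arrays. So did Calb1, by medians of 11.25 in MGE and 11.62 in CTX arrays. Nkx2-1, a transcription factor gene of the list, was above the array median in only 2 of 12 MGE arrays and 0 of 12 CTX arrays. Gad1 and Lhx6 were above the median in all 12 CTX arrays, so transcripts of inhibitory neurons were also measured in CTX cultures. In such bulk samples fewer cells of a type and less RNA per cell cannot be told apart. Astrocyte markers averaged 9.16 to 9.64 in MGE and 8.19 to 9.52 in CTX arrays (8 genes), and microglial markers 6.23 to 7.30 and 5.87 to 6.35 (8 genes). Progenitor markers averaged 8.90 to 9.53 and 7.39 to 8.89 (7 genes), oligodendrocyte lineage markers 7.79 to 8.18 and 7.07 to 7.68 (7 genes), and vascular markers 6.63 to 7.0 and 6.34 to 6.90 (8 genes). Their part in the Bdnf differences between cell types was not tested.

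Npas4 served as the check of genotype. WT arrays read 5.70 to 5.94 before KCl, 11.20 to 12.04 after 1 h and 8.59 to 11.84 after 6 h, and KO arrays 5.36 to 5.82, 6.80 to 7.34 and 6.80 to 7.82. KO arrays were thus below every WT array at 1 and 6 h in both cell types, with a KO minus WT difference at 6 h of log2 -2.02 ± 0.25 (SE, n = 2 arrays per group) in MGE and -4.00 ± 0.25 in CTX cultures (limma, adjusted p = 0.00627 and 2.86e-06).

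The first question was when and how far Bdnf responded to depolarization in CTX cultures. With 1422168_a_at, Bdnf in CTX WT cultures read 7.74 and 6.79 in repeats 1 and 2 before KCl, 10.61 and 9.07 after 1 h, and 12.98 and 12.32 after 6 h. With 1422169_a_at it read 7.66 and 7.06, then 10.46 and 9.16, then 12.22 and 11.14. Every array at 1 h was above every array at 0 h, and every array at 6 h above those at 1 h, for both probe sets. Repeat 1 was above repeat 2 in each of the 6 CTX groups, by 0.49 to 1.55 with the first and 0.17 to 1.31 with the second probe set. Over all probe sets, CTX repeats of the same number also deviated from their group means together.

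Bdnf rose in CTX WT cultures at 1 h by log2 2.58 ± 0.45 (SE, n = 2 arrays per group) with 1422168_a_at and 2.45 ± 0.41 with 1422169_a_at (limma, adjusted p = 0.00515 and 0.00386), where 2.33% of all tested probe sets were called in either direction and 1.21% were called higher. Calls here are adjusted p-values under 0.05 over all 26335 tested probe sets. By 6 h the rise over 0 h was 5.38 ± 0.45, or 41.8-fold, and 4.32 ± 0.41, or 20.0-fold (adjusted p = 7.6e-07 and 2.46e-06, 35.8% of probe sets called, 15.2% higher). Among the 26335 probe sets these were the 9th and 31st largest rises. The further rise from 1 h to 6 h was 2.81 ± 0.45 and 1.87 ± 0.41 (adjusted p = 3.06e-04 and 0.00321, 30.5% called, 13% higher). Most of the total change on the linear scale came after 1 h, since the mean intensity of 1422168_a_at went from 162 before KCl to 1053 after 1 h and 6598 after 6 h.

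In the fit without a block for repeat number, the 1 h rise rested on single arrays for its call. Without repeat 1 of CTX WT at 1 h it was 1.80 with either probe set (adjusted p = 0.0911 and 0.0744), and without repeat 2 of CTX WT at 0 h it was 2.10 and 2.15 (adjusted p = 0.106 and 0.0781). With the repeat number as a block in CTX cultures, chosen after seeing the data, the 1 h rise was called with both probe sets (limma, adjusted p = 1.14e-05 and 7.21e-05). Within repeat 1 the 1 h rise of 1422168_a_at was 2.88 and within repeat 2 it was 2.28. At 6 h the values within repeats were 5.24 and 5.53. The 6 h rise stayed called without either CTX WT array of 6 h, the group with the wider spread, at 5.06 and 5.71 with 1422168_a_at and 3.78 and 4.86 with 1422169_a_at. The rise of 1422169_a_at from 1 to 6 h was not called without repeat 2 of CTX WT at 1 h (1.22, adjusted p = 0.0647).

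Cultures without Npas4 showed the same order of times. In CTX KO cultures Bdnf read 7.42 and 6.34 before KCl with 1422168_a_at, then 10.35 and 9.72, and 12.55 and 12.07 after 6 h. With 1422169_a_at it read 7.29 and 7.12, then 10.52 and 9.84, then 11.78 and 11.15. As in WT, the 3 times did not overlap. Bdnf rose within 1 h by 3.15 ± 0.45 and 2.98 ± 0.41 (limma, n = 2 arrays per group, adjusted p = 0.00109 and 8.75e-04, 2.32% of probe sets called, 1.33% higher). The 6 h rise was 5.43 ± 0.45 and 4.26 ± 0.41 (adjusted p = 6.12e-07 and 2.35e-06, 37.7% called, 16.8% higher). The rise from 1 to 6 h was 2.28 ± 0.45 and 1.29 ± 0.41 (adjusted p = 0.00135 and 0.0266, 32.5% called, 14.4% higher). The second of these was not called without repeat 1 of CTX KO at 6 h (0.97) or repeat 2 of CTX KO at 1 h (0.95).

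**Figure D1:**
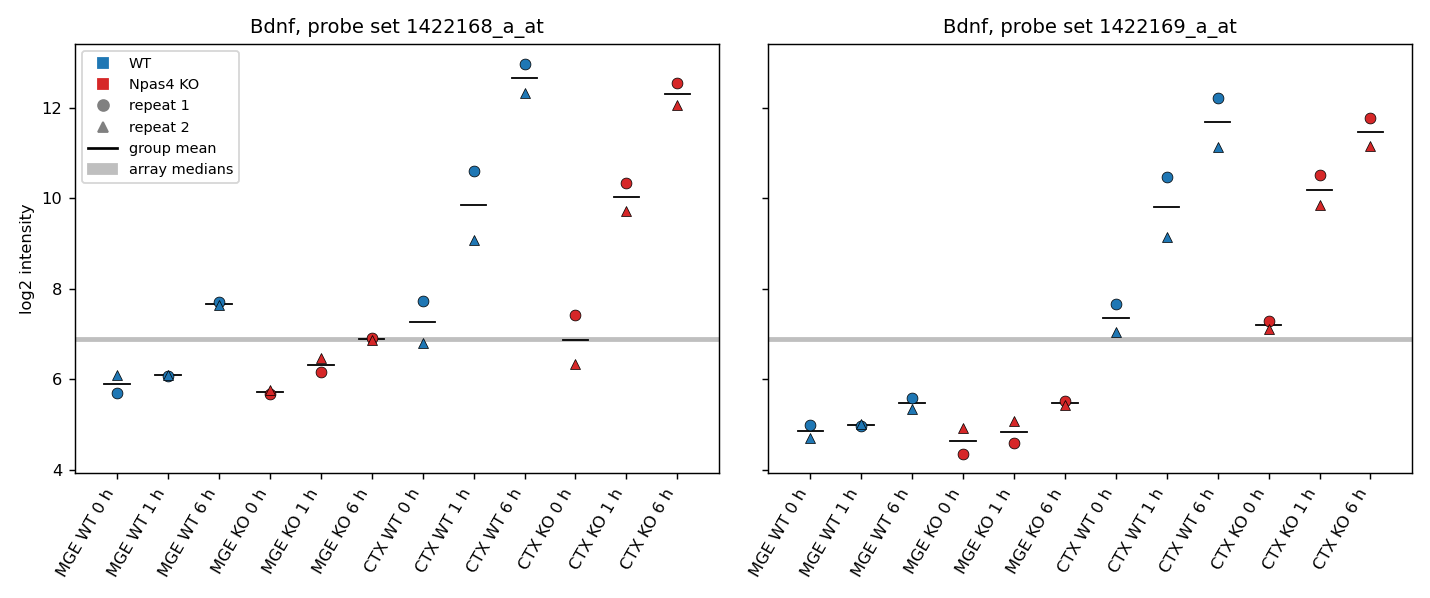
Bdnf log2 intensity (y axis) in the 12 groups of cell type, genotype and hours of KCl (x axis) for each probe set. Points are single arrays (circles repeat 1, triangles repeat 2), black lines are group means and the grey band marks the range of the array medians. CTX groups climb from about the array median at 0 h to between 11.14 and 12.98 at 6 h, while all MGE arrays lie at or below 7.70.

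The MGE cultures held far less Bdnf signal. In MGE WT cultures 1422168_a_at read 5.71 and 6.10 before KCl, 6.08 and 6.10 after 1 h, and 7.70 and 7.65 after 6 h. In MGE KO cultures it read 5.67 and 5.76, then 6.17 and 6.48, then 6.90 and 6.87. Only 6 h arrays exceeded the array median, and repeat 2 of MGE KO at 6 h, at 6.87 against a median of 6.88, did not. It was thus not shown that the lower values exceed background, and differences from them are approximate. For 1422169_a_at all 12 MGE arrays were below the median: MGE WT arrays read 5.0 and 4.70, 4.96 and 5.02, and 5.59 and 5.35, and MGE KO arrays 4.35 and 4.93, 4.59 and 5.07, and 5.52 and 5.44. The highest MGE array of this probe set lay below the lowest CTX array by more than 1 log2 unit.

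At 1 h no rise of Bdnf was called in MGE cultures. The change in MGE WT was 0.19 ± 0.45 and 0.14 ± 0.41 (limma, n = 2 arrays per group, adjusted p = 0.921 and 0.939), with 95% intervals of -0.77 to 1.15 and -0.74 to 1.02 (1.06% of probe sets called, 0.562% higher). In MGE KO it was 0.61 ± 0.45 and 0.19 ± 0.41 (adjusted p = 1 for both, 0.915% called, 0.501% higher). All 4 MGE KO values of 1422168_a_at at these times were below the array median.

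At 6 h Bdnf rose in MGE WT cultures with 1422168_a_at, by 1.77 ± 0.45 or 3.41-fold (limma, n = 2 arrays per group, adjusted p = 0.0113, 24.2% of probe sets called, 11.8% higher), the 314th largest rise. The change of 1422169_a_at was 0.62 ± 0.41 (adjusted p = 0.288), so the call rested on 1 probe set. The rise of 1422168_a_at from 1 to 6 h was 1.58 ± 0.45 (adjusted p = 0.0314, 13.1% called, 6.13% higher), and that of 1422169_a_at 0.48 ± 0.41 (adjusted p = 0.534). The call at 6 h was lost without repeat 1 of MGE WT at 6 h (1.74, adjusted p = 0.078) and held without repeat 1 of MGE WT at 0 h, the group whose arrays differed most (1.58, adjusted p = 0.0398). The call from 1 to 6 h was lost without any one of its 4 arrays (1.56 to 1.61). With values below the array median set to the median, the 6 h change was 0.81 and was not called.

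In MGE KO cultures the 6 h change was 1.17 ± 0.45 and 0.84 ± 0.41 (limma, n = 2 arrays per group, adjusted p = 0.0935 and 0.199, 17% of probe sets called, 7.06% higher), and neither passed. All arrays at 6 h were above those at 0 h with both probe sets. With the repeat number as a block in CTX cultures, which lowers the shared estimate of the spread, both passed (adjusted p = 0.00136 and 0.0293). The change from 1 to 6 h was 0.56 ± 0.45 and 0.65 ± 0.41 (13.3% called, 5.75% higher) and did not pass.

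The next question was whether Bdnf depended on Npas4, whose partner Arnt and core motif TCGTG are given above. No difference between KO and WT was called in either cell type at any time. With 1422168_a_at, KO minus WT in MGE cultures was -0.19 before KCl, 0.23 after 1 h and -0.79 after 6 h, and in CTX cultures -0.39, 0.19 and -0.34. With 1422169_a_at it was -0.21, -0.16 and 0.01 in MGE and -0.15, 0.37 and -0.21 in CTX cultures. The SE was 0.45 and 0.41 (limma, n = 2 arrays per group), and adjusted p-values were 0.795 to 1. Of all probe sets 0.019%, 0.038% and 0.0266% were called in MGE and 0%, 0.0038% and 0.0987% in CTX cultures, in the order of the times, so few genes of any kind passed. Where limma called 0%, in CTX cultures at 0 h, 122 probe sets (0.463%) had an unadjusted p under 0.05. That share is smaller than the threshold alone would give with no difference, so it is no sign of a difference. The arrays of MGE WT at 0 h differed widely. Repeat 2 read below all other MGE arrays for Mettl15 (6.77) and Lgr4 (8.08), neighbours of Bdnf on the chromosome. Fits without repeat 1 leave this array alone for the group, so their counts of calls were not read as differences between genotypes.

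The widest gap between genotypes was in MGE cultures at 6 h with 1422168_a_at, where KO arrays at 6.90 and 6.87 were both below WT arrays at 7.70 and 7.65. The difference of -0.79 had a 95% interval of -1.75 to 0.17 (unadjusted p = 0.101 in limma), and was -0.80 within repeat 1 and -0.78 within repeat 2. The SE behind this interval pools the spread of all 12 groups. For this probe set the SD was 0.038 and 0.025 in MGE WT and KO at 6 h, against 0.34 to 1.09 in CTX groups. The interval was thus set in large part by the spread of CTX arrays. With 1422169_a_at the difference was 0.01 (interval -0.87 to 0.89). The 6 h intervals in CTX cultures were -1.30 to 0.62 and -1.09 to 0.67, and the 1 h intervals -0.77 to 1.15 and -0.51 to 1.25. With 2 arrays per group, any difference inside these limits was compatible with the data in this fit. No difference of the response between genotypes was called. KO minus WT response after 6 h was -0.60 ± 0.64 and 0.22 ± 0.58 in MGE cultures and 0.04 ± 0.64 and -0.06 ± 0.58 in CTX cultures (limma, adjusted p = 1, 0.0038% and 0.00759% of probe sets called). After 1 h it was 0.42 and 0.05 in MGE and 0.58 and 0.53 in CTX cultures (adjusted p = 1, 0.0038% called in each). In the 22 tests that involve genotype, counting the cell type by genotype by time term (-0.65 ± 0.90 and 0.28 ± 0.83), 0 were called and 0 had an unadjusted p under 0.05. Over all probe sets, 0.167% to 3.96% had an unadjusted limma p under 0.05 in these comparisons, apart from MGE at 0 h with 19.6%. A count of 0 was thus near the background and does not show that Bdnf is independent of Npas4.

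These limits depend on whether the repeat number is taken as a block in CTX cultures, where it pairs the arrays. With that block 0 of the 22 were called and 1 had an unadjusted p under 0.05, the MGE difference at 6 h with 1422168_a_at (-0.79, interval -1.23 to -0.34, unadjusted p = 0.00196, adjusted p = 0.428 in limma). Its arrays are not themselves paired by the block, which narrows the interval through the shared estimate of the spread, and 1422169_a_at gave 0.01 (interval -0.52 to 0.54). With the block in both cell types, which pairs MGE arrays too, the interval for 1422168_a_at was -1.23 to -0.35. This difference was again not called (unadjusted p = 0.002, adjusted p = 0.336 in limma), and 1422169_a_at gave 0.01 (interval -0.53 to 0.55). The 6 h intervals in CTX cultures became -0.79 to 0.10 and -0.74 to 0.32, and the 1 h intervals -0.25 to 0.63 and -0.16 to 0.90.

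The cell types were then compared directly. Bdnf was lower in MGE than in CTX cultures at every time and in both genotypes, and each of the 12 differences was called. In WT cultures at 0 h MGE minus CTX was -1.36 ± 0.45 with 1422168_a_at and -2.51 ± 0.41 with 1422169_a_at (limma, n = 2 arrays per group, adjusted p = 0.0164 and 1.34e-04), where 62.3% of probe sets were called, 30% as lower, so a call in this comparison is common. After 1 h it was -3.75 and -4.82 (53.4% called), and after 6 h -4.98 and -6.21 (55.8% called). In KO cultures the differences were -1.16 and -2.56, then -3.71 and -5.35, then -5.42 and -5.98 (47.6%, 45.4% and 54.3% called). The 6 h differences in WT correspond to 31.5-fold and 73.9-fold, as approximate values because MGE levels were dim.

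The 0 h difference was the least firm. With 1422168_a_at in WT it was not called without repeat 1 of MGE WT at 0 h (-1.17, adjusted p = 0.0831) or repeat 1 of CTX WT at 0 h (-0.89, adjusted p = 0.168). In KO it was -1.16 (adjusted p = 0.0451) and lost its call in 11 of the 24 fits that leave out 1 array, at the most to -0.62 without repeat 1 of CTX KO at 0 h. With values below the array median set to it, the 0 h differences were -0.44 and -0.49 in WT and -0.23 and -0.30 in KO cultures and were not called. The 1 h and 6 h differences stayed called in every fit that left out 1 array.

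The response to KCl differed between cell types at 6 h. MGE response minus CTX response was -3.61 ± 0.64 and -3.70 ± 0.58 in WT (limma interaction, n = 2 arrays per group, adjusted p = 0.00329 and 0.00171, 11.2% of probe sets called) and -4.26 ± 0.64 and -3.42 ± 0.58 in KO cultures (adjusted p = 0.00122 and 0.00295, 7.8% called). These 4 values stayed called in every fit that left out 1 array. At 1 h the difference was -2.39 ± 0.64 and -2.31 ± 0.58 in WT (adjusted p = 0.464 and 0.354, 0.038% called) and -2.55 and -2.79 in KO cultures (adjusted p = 0.482 and 0.259, 0.0114% called), and did not pass. With the repeat number as a block in CTX cultures all 4 of the 1 h values passed (adjusted p = 0.012 and 0.0339 in WT, 0.00778 and 0.0108 in KO).

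**Figure D2:**
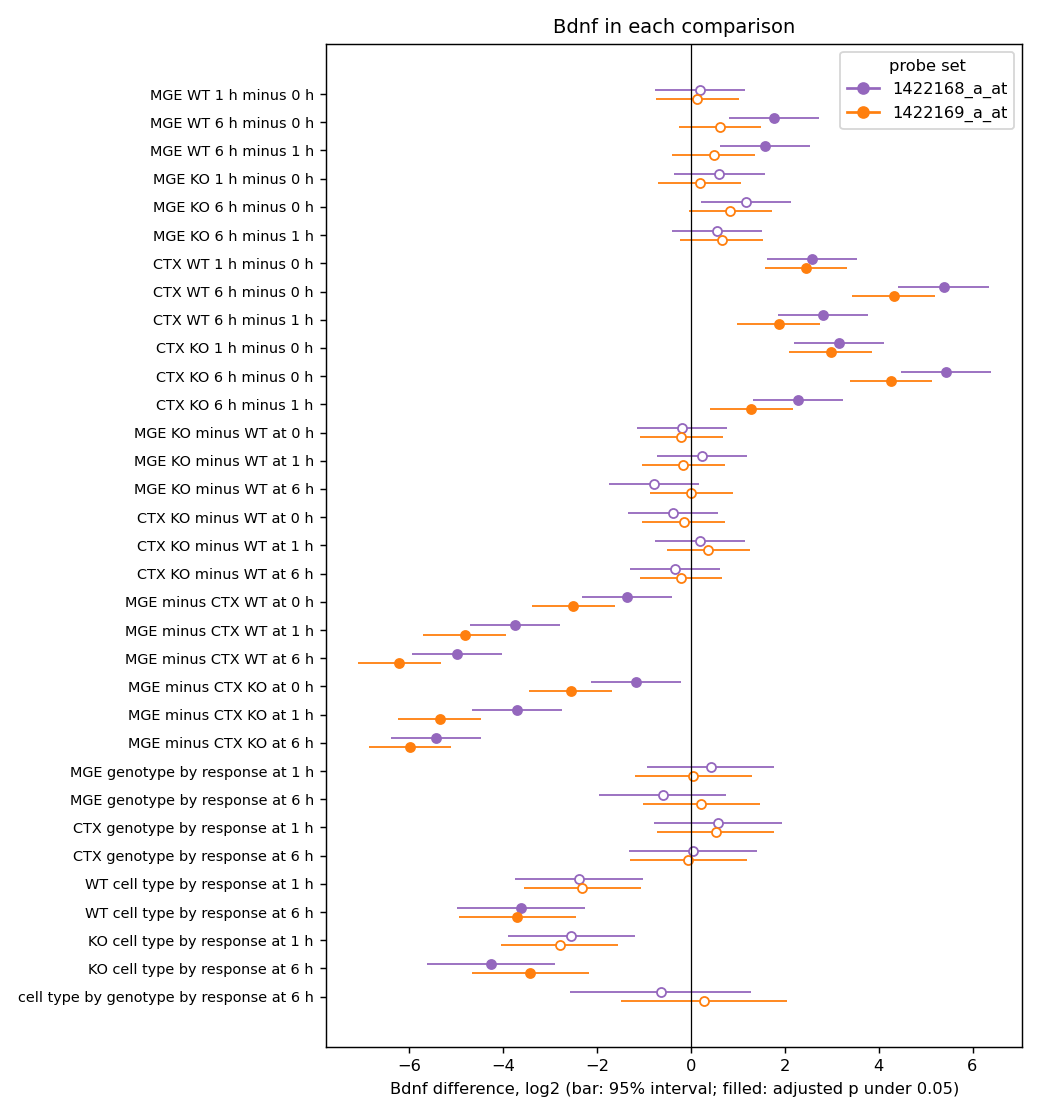
Bdnf log2 difference (x axis) in each of the 33 comparisons (y axis) for 1422168_a_at (purple) and 1422169_a_at (orange), with 95% intervals from the fit. Filled points have an adjusted p under 0.05, which holds for all CTX responses, all MGE minus CTX differences and the cell type by response terms at 6 h, and for none of the KO minus WT or genotype terms.

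Ordered by level, 1422168_a_at ran from CTX WT at 6 h (mean 12.65) and CTX KO at 6 h (12.31) through CTX KO and WT at 1 h (10.03 and 9.84) to MGE WT at 6 h (7.67), CTX WT at 0 h (7.27), MGE KO at 6 h (6.89) and CTX KO at 0 h (6.88). The other MGE groups followed between 6.32 and 5.72. The depolarized MGE cultures thus overlapped the silenced CTX cultures. Neighbours in this order had arrays that overlapped except at 3 steps: from CTX at 6 h to CTX at 1 h, from there to MGE WT at 6 h, and from MGE KO to MGE WT at 1 h. With 1422169_a_at the 6 CTX groups came first and MGE groups after a step of 1.72, and 4 neighbouring pairs did not overlap. The probe sets differed most in MGE arrays, where 1422168_a_at was higher by 0.71 to 2.29, against -0.78 to 1.18 in CTX arrays. Levels of different probe sets are not comparable in amount.

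Of the other neurotrophins, Ntf5 read 4.08 to 4.65 in all arrays, too dim to be tested. Ntf3 was not analysed here. Of 7 neurotrophin receptor genes tested, 1 rose and 1 fell in MGE WT at 6 h (28.6% called against 24.2% of all tested probe sets, median change 0.28 against 0.01). In CTX WT at 6 h 2 rose and 0 fell (28.6% against 35.8%, median 0.14 against -0.03), so the shares called were near the background. Ntrk2, which encodes TrkB, read 12.36 and 12.44 in CTX WT before KCl and 12.75 and 12.84 after 6 h, and rose by 0.40 ± 0.12 (limma, n = 2 arrays per group, adjusted p = 0.0195). In MGE WT Ntrk2 read 12.91 and 12.92 before KCl and 13.11 and 13.09 after 6 h, a change of 0.18 ± 0.12 that did not pass. Its arrays were bright in both cell types, at 12.26 to 13.11. Ntrk2 was higher in MGE than in CTX cultures at 0 h by 0.51, but another of its probe sets, 1444121_at, differed by -1.05 (adjusted p = 0.00229), so its direction between cell types depended on the probe set.

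Other receptors also differed between the cell types. Ntrk3, the receptor of neurotrophin 3, was lower in MGE WT at 0 h by log2 -2.81 ± 0.49 (limma, n = 2 arrays per group, adjusted p = 1.95e-04) and showed no called change with KCl. Ngfr, the low affinity receptor p75, which also binds the BDNF precursor, was higher in MGE WT at 0 h by 2.97 ± 0.27 (adjusted p = 8.09e-07) and fell in MGE WT at 6 h, to 9.34 and 9.18 from 9.93 and 10.48 (-0.94 ± 0.27, adjusted p = 0.0221). Of the sortilin family of sorting receptors, Sorcs2 rose in MGE WT at 6 h (0.90 ± 0.22, adjusted p = 0.00827). Sorcs3 rose in CTX WT at 6 h (1.32 ± 0.47, adjusted p = 0.0412), with 1.34 ± 0.47 in MGE WT (adjusted p = 0.0517). Sort1 and Sorcs1 changed by 0.03 and 0.41 in MGE and -0.12 and 0.31 in CTX WT at 6 h, and did not pass. The MGE count of 2 called receptors was 0 without repeat 2 of MGE WT at 6 h and 4 without either CTX WT array of 6 h, and the CTX count of 2 was 0 without either CTX WT array of 0 h.

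Of 9 tested genes for processing of the precursor, 2 rose and 0 fell at 6 h in each cell type (22.2% called, against 24.2% of all tested probe sets in MGE WT and 35.8% in CTX WT). The share called was thus at or below the background, and the median change was 0.09 in MGE WT against 0.01 over all probe sets and 0.16 in CTX WT against -0.03. Pcsk1 encodes prohormone convertase 1, a granule protease that cuts prohormones. It read 7.07 and 5.91 in CTX WT before KCl, 9.39 and 7.64 after 1 h, and 12.50 and 12.62 after 6 h, and rose by 6.07 ± 0.46 (limma, n = 2 arrays per group, adjusted p = 3.27e-07). In MGE WT it read 7.75 and 7.22, 8.40 and 8.09, and 10.52 and 9.96, and rose by 2.76 ± 0.46 (adjusted p = 7.51e-04). Every 6 h array was above every 0 h array in both cell types, and the MGE response was smaller by a difference of -3.31 ± 0.64 (adjusted p = 0.00571), as for Bdnf. Plat encodes tissue plasminogen activator, which starts the plasmin cascade that can cut the BDNF precursor outside cells. Plat rose in CTX WT at 6 h by 2.30 ± 0.37 (adjusted p = 2.27e-04) and changed by -0.16 ± 0.37 in MGE WT, and these responses differed by -2.45 ± 0.53 (adjusted p = 0.00982).

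The convertase gene Pcsk5 rose in MGE WT at 6 h (1.41) and changed by 1.00 in CTX WT, which did not pass. Furin, which cuts many precursors in the Golgi, changed by -0.16 in MGE WT and 0.25 in CTX WT, and Cpe, the carboxypeptidase that trims cut prohormones, by 0.09 and 0.04, and neither passed. Without repeat 1 of MGE WT at 6 h or repeat 2 of MGE WT at 0 h the MGE count was 1, and the CTX count was 4 without repeat 2 of CTX WT at 6 h and 4 with the repeat number as a block. Plg and Mmp3 were on the array but too dim to be tested, and Pcsk2 was not analysed here.

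Among 9 tested genes of dense core granules, 2 rose in MGE WT at 6 h (22.2% called against 24.2% of all probe sets, 11.8% of all as higher, median change 0.11 against 0.01). In CTX WT at 6 h 4 rose (44.4% against 35.8%, 15.2% of all as higher, median 0.31 against -0.03), and 0 fell in either. Vgf, a granule protein and growth factor precursor, rose by 3.05 ± 0.43 in MGE WT and 4.38 ± 0.43 in CTX WT (limma, n = 2 arrays per group, adjusted p = 2.19e-04 and 2.9e-06), and already at 1 h by 2.25 and 3.45. The MGE minus CTX difference of the Vgf response at 6 h was -1.33 ± 0.60 and did not pass (adjusted p = 0.163). Scg2, secretogranin 2, rose by 1.60 in CTX WT and changed by 0.46 in MGE WT, and Chga and Scg3, for chromogranin A and secretogranin 3, rose in CTX WT by 0.45 and 0.35. Syt4, a synaptotagmin found on BDNF granules, rose in MGE WT (1.58) and changed by 0.31 in CTX WT. Without repeat 1 of MGE WT at 0 h the MGE count was 5, and without repeat 2 of CTX WT at 0 h or at 6 h the CTX count was 2.

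Of 23 tested genes for factors that act on Bdnf promoters, 10 rose and 2 fell in MGE WT at 6 h (52.2% called against 24.2% of all probe sets, median change 0.44 against 0.01). In CTX WT at 6 h 8 rose and 3 fell (47.8% against 35.8%, median 0.08 against -0.03). Within 1 h 5 rose in MGE WT (21.7% against 1.06%) and 6 in CTX WT (26.1% against 2.33%), and 0 fell. The list holds well-known activity-dependent factors and was chosen with earlier results known, so these shares are a description. Known activity-dependent factors were among those that rose. Fos and Junb, subunits of AP-1, rose at 6 h by 5.35 and 1.30 in MGE WT and by 5.50 and 3.74 in CTX WT. Crem, a relative of CREB with activating and repressing forms, rose by 3.48 and 4.13, and Atf3, a stress and activity factor of the same family, by 1.78 and 3.52. Npas4 rose by 3.19 in MGE WT and 5.92 in CTX WT within 6 h, and by 5.85 and 6.03 within 1 h, with a difference between the cell types of -0.18 ± 0.35 in the 1 h rise (limma, adjusted p = 0.981) and -2.73 ± 0.35 in the 6 h rise (adjusted p = 4.95e-04).

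Srf, the serum response factor, rose in CTX WT at 6 h (1.46) and changed by 0.44 in MGE WT. Arnt, the partner of Npas4, rose by 0.85 in MGE and 0.64 in CTX WT, and Mef2d by 0.87 and 0.64. Creb1 rose by 0.78 in MGE WT and changed by -0.32 in CTX WT, a response difference of 1.09, but 2 of its other probe sets gave -1.13 and -1.48. Crebbp, the CREB coactivator, rose in MGE WT (0.77). Carf, named for a calcium-responsive element of a Bdnf promoter, fell by 1.30 in MGE WT and by 2.29 in CTX WT, Crtc1, a CREB coactivator, fell by 0.66 and by 0.77, and Usf2, an E-box factor, fell by 0.45 in CTX WT. The MGE count of 12 called regulators was 6 without repeat 1 of MGE WT at 6 h and 7 without repeat 2 of MGE WT at 0 h. At 0 h 11 of the 23 were lower and 2 higher in MGE than in CTX WT cultures (56.5% called against 62.3% of all probe sets, 30% of all as lower and 32.3% as higher), so the share called was near the background.

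Genes downstream of TrkB came next. Of 17 tested adaptors and effectors, 0 rose and 2 fell in MGE WT at 6 h (11.8% called against 24.2% of all probe sets, median change -0.03 against 0.01). In CTX WT at 6 h 1 rose and 5 fell (35.3% called against 35.8%, median -0.21 against -0.03), which is the background share. Shc3, an adaptor of the Shc family in neurons, rose in CTX WT (1.5). Frs3, a docking protein of TrkB, fell by 1.20 in CTX WT, and Slitrk5, a TrkB-associated membrane protein, Shc2 and the phosphatase gene Ptpn11 fell by 0.69, by 0.61 and by 0.59. Nedd4l, a ubiquitin ligase gene, fell by 1.84 with its brightest probe set, while 2 of its other probe sets rose by 1.06 and 0.80, so its direction depended on the probe set. In MGE WT Shc2 and the adaptor gene Gab1 fell by 0.80 and by 0.83. This count of 2 was 0 without repeat 1 of MGE WT at 6 h or repeat 2 of MGE WT at 0 h, 1 without most other arrays and 7 without repeat 1 of MGE WT at 0 h.

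**Figure D3:**
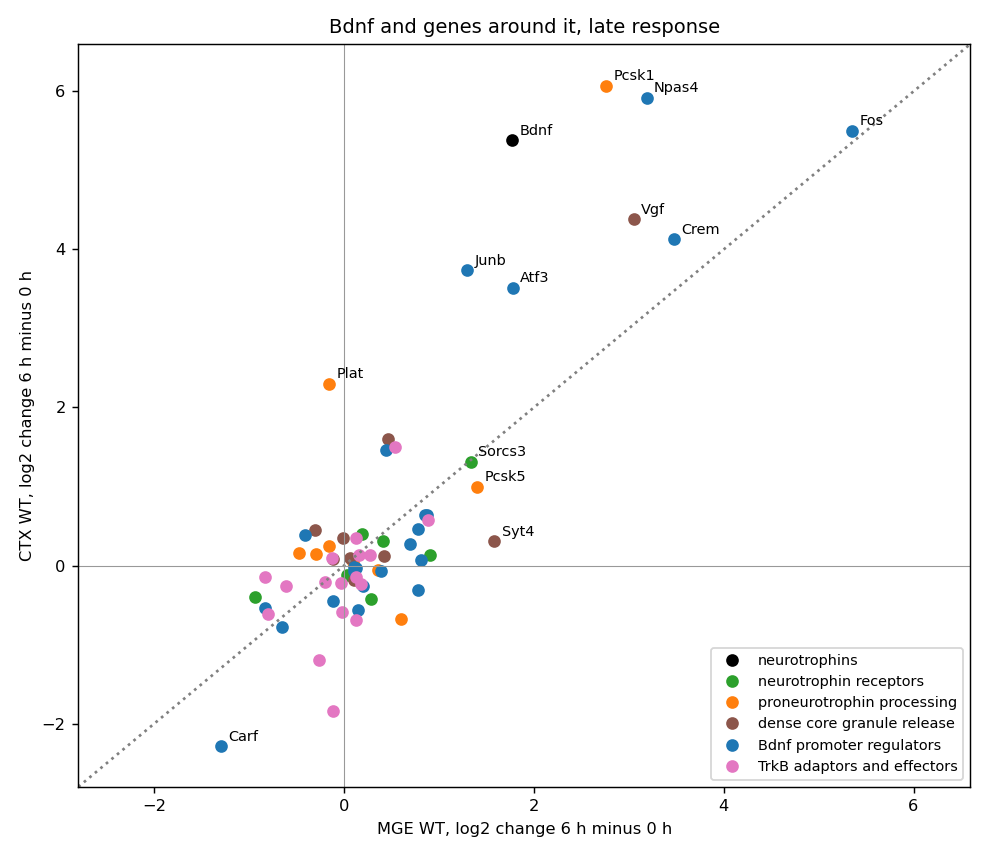
Log2 change at 6 h in MGE WT (x axis) and CTX WT (y axis) for Bdnf (black, 1422168_a_at) and the tested genes of the 5 other lists (colours), each by its brightest probe set. The dotted line marks equal changes. Bdnf (1.77, 5.38) and Pcsk1 (2.76, 6.07) lie far above the line, Fos (5.35, 5.50) lies near it, and most receptors and adaptors lie near 0 on both axes.

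Genes whose pattern was most like that of Bdnf were ranked by Pearson r of log2 values with 1422168_a_at over the 24 arrays, as a description over arrays that share groups and cell types. Of 12377 other genes, 8 had r over 0.95 and 62 over 0.9, and the median was -0.27. The first 10 were Pax1 (0.97), Gem (0.97), Grasp (0.96), Kif18a (0.96), Mpzl3 (0.96), Klf14 (0.95), Lsm12 (0.95), Sbds (0.95), Akt1s1 (0.95) and Cebpb (0.94). All 10 rose in CTX WT and in CTX KO at 6 h, and their selection for likeness to Bdnf makes that no separate finding. The rises in CTX WT ran from 1.10 for Lsm12, an RNA-binding protein gene, to 4.48 for Gem, a small GTPase gene, and 4.85 for Kif18a, a mitotic kinesin gene. Within the 12 CTX arrays r was 0.90 to 0.98, and within the 12 MGE arrays 0.36 to 0.80. The ranking itself favours likeness in CTX arrays, where Bdnf varied most, while MGE values were dim and varied little. The lower r in MGE arrays was therefore not read as a trait of these genes. In MGE WT at 6 h 3 of the 10 rose, where 11.8% of all tested probe sets were called higher and 24.2% in either direction. The 3 were Grasp (1.17), a scaffold protein gene, Mpzl3 (1.07) and the transcription factor gene Cebpb (0.81). Gem changed by 0.27 and Pax1, a paired box factor gene, by 0.41. With Spearman rho, or with 1422169_a_at as the reference, 2 of the 10 were still among the first 10, and with group means 8 were.

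Kif18a is also the nearest protein-coding gene before Bdnf that has a probe set. Its nearest end lies 333 kb before the start of Bdnf, at chr2:109280738-109341749, and Mettl15, a mitochondrial methyltransferase gene, at chr2:109092297-109281330 overlaps its first bases. After Bdnf come Lin7c, a synaptic scaffold gene, at chr2:109890878-109900937 (164 kb away), and Lgr4, a receptor gene of Wnt signalling, at chr2:109917647-110014257 (191 kb away). All positions are in GRCm38.p6 from RefSeq. The Kif18a window is shown because it was the only one of the 5 windows found for the 10 genes above to hold a full CRE, here in capitals with the CRE core matches.
Kif18a window, chr2:109280488-109280787, forward strand: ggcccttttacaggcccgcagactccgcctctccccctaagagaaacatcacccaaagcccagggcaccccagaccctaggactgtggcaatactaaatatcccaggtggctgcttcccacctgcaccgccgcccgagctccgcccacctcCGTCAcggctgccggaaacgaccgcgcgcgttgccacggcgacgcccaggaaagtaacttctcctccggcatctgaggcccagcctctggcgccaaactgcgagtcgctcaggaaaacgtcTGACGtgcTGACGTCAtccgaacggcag
The full CRE starts at base 281 of this window, after the annotated start, and 4 CRE core matches were counted, those within the full CRE included. CRE core matches were in 3 of the 5 windows and TCGTG in 1, against 23% and 18.1% of 27025 genes. The full CRE was in 2.03% of all genes. With 5 windows these counts are a description and no test of enrichment was run.

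Kif18a, read by 1424107_at, was 5.76 and 5.60 in CTX WT before KCl, 9.46 and 7.64 after 1 h, and 10.27 and 10.80 after 6 h. In CTX KO it read 6.20 and 5.31, 9.70 and 8.52, and 10.48 and 10.85, and in MGE arrays 5.23 to 6.70 throughout. Arrays of the 3 times did not overlap in CTX cultures. Kif18a rose in CTX WT by 2.87 ± 0.55 within 1 h and 4.85 ± 0.55 within 6 h (limma, n = 2 arrays per group, adjusted p = 0.00959 and 1.06e-05) and in CTX KO by 3.36 and 4.91. No change was called in MGE cultures (0.55 in WT and 0.43 in KO at 6 h), and the response differed between cell types at 6 h by -4.30 ± 0.78 in WT (adjusted p = 0.00379) and -4.48 ± 0.78 in KO (adjusted p = 0.00326). The other Kif18a probe set, 1457895_at, read 3.40 to 4.32 in all arrays and was too dim to be tested, so the induced signal was seen with 1 of 2 probe sets. In CTX cultures KO minus WT was 0.07, 0.56 and 0.13 in the order of the times, and none was called.

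No such change was called for the other neighbours. The brightest probe sets of Mettl15, Lin7c and Lgr4 changed by 0.63, -0.23 and -0.54 in CTX WT at 6 h and by 0.86, 0.63 and 0.89 in MGE WT, and none passed. All 3 were lower in MGE than in CTX WT cultures at 0 h, by log2 differences of -2.04, -1.35 and -2.18. In KO cultures these differences were smaller, at -0.95, -0.68 and -1.04, and the MGE KO changes at 6 h were 0.04, 0.08 and 0.04. The MGE WT values rest in part on repeat 2 at 0 h, the lowest MGE array for all 3. It read 6.77, 10.87 and 8.08, against 8.005, 11.8 and 9.54 in repeat 1. Of the other Lin7c probe sets, 1418898_at rose in CTX WT at 6 h by 1.00 ± 0.15 (limma, n = 2 arrays per group, adjusted p = 1.28e-04) and in CTX KO by 0.95, and 1449262_s_at rose in MGE WT at 6 h by 0.83 (adjusted p = 0.0266), so the response of Lin7c depended on the probe set.

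**Figure D4:**
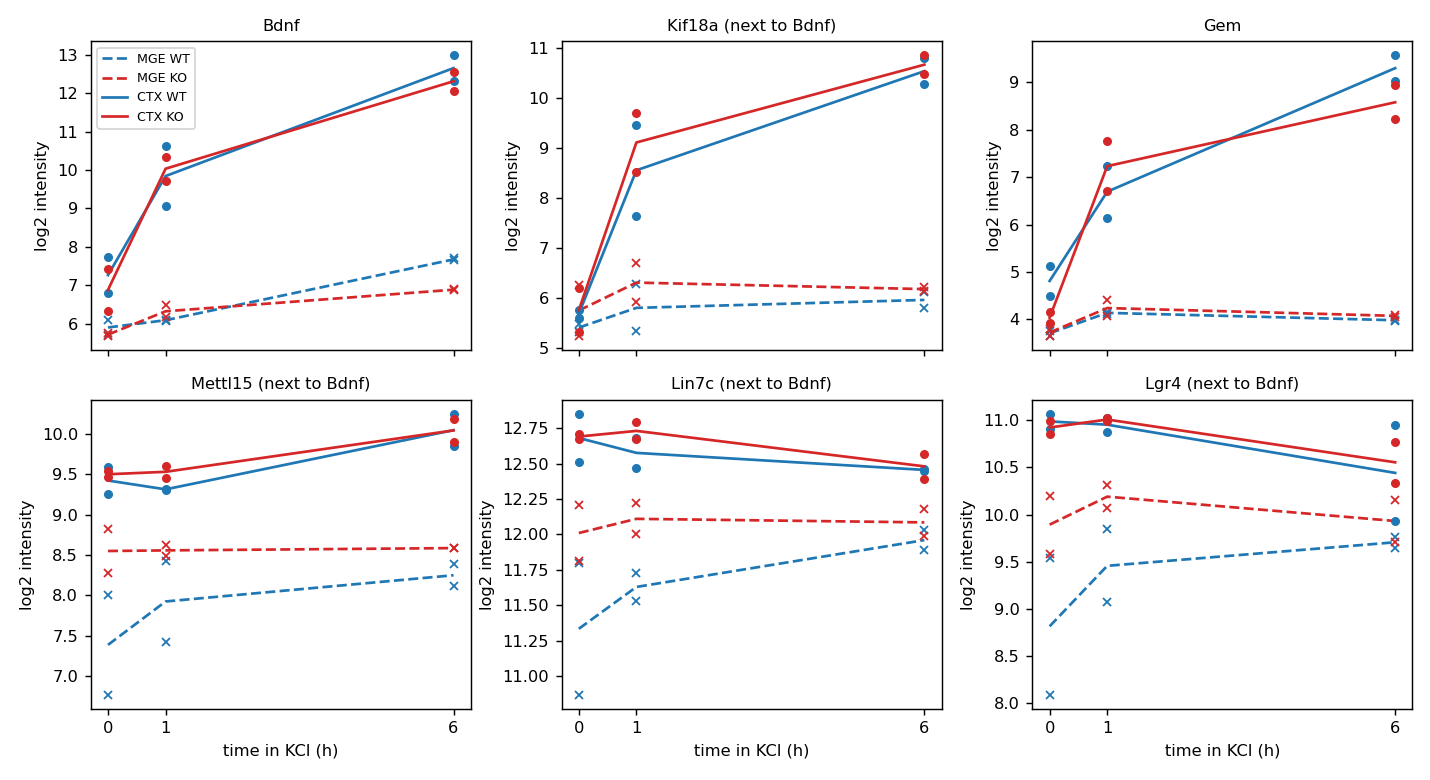
Log2 intensity (y axis, a separate scale in each panel) against time in 55 mM KCl (x axis, h) for Bdnf (1422168_a_at), its 4 neighbours on the chromosome and Gem, each by its brightest probe set. Points are arrays (filled circles CTX, crosses MGE), lines join group means, blue is WT and red is KO. Bdnf, Kif18a and Gem rise steeply in CTX and little in MGE cultures, and Mettl15, Lin7c and Lgr4 change by less than 0.9 at 6 h.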

How the data were processed

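The 24 arrays (Affymetrix mouse expression arrays, 100 ng of total RNA amplified for each) measured 12 groups of 2. The authors deposited 1 linear intensity per probe set and array, and the submitters' processing notes name RMA, which corrects background, equalizes array distributions and summarizes probes. Whether all arrays were normalized together is not given in the sources used here, and a change shared by most genes would not show. Cultures were kept 10 days, per the labels' protocols.

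Intensities were converted to log2. The 26335 probe sets that exceeded the median of their array on 2 arrays or more were tested in limma 3.58.1 (R version 4.3.3). The model held a mean for each of 12 groups over all 24 arrays, with 12 residual and 2.68 prior degrees of freedom, and two-sided Benjamini-Hochberg adjustment within each of the comparisons, called under 0.05. An exact test of 2 arrays against 2 cannot go below p = 0.333. On simulated data at the CTX WT 6 h contrast with 26335 probe sets, 28, 43, 49 and 50 of 50 shifts of 1, 2, 3 and 4 log2 units were recovered. Of 177 calls 7 were false. The simulated noise was independent between arrays, while real repeats deviate together, so these rates need not hold for the real arrays. Lists used each gene's brightest probe set, and named genes were Bdnf, Npas4, receptors, up to 6 called genes per direction of the other lists in the WT 6 h comparisons, the 10 genes most like Bdnf, its neighbours and markers. Members and lists were chosen with earlier results of these data known. Promoter windows are from RefSeq (GRCm38.p6).

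Repeat numbers pair the CTX arrays: deviations from group means correlated over 0.1 in 15 of 15 pairs of groups (0.12 to 0.68). This pairing comes from the data, since the labels do not state it. In MGE cultures 12 of 15 pairs passed 0.1 (-0.28 to 0.79), and the median was 0.53 against 0.35 in CTX cultures. Most MGE groups thus also paired by repeat number, though not all pairs did. The block in CTX cultures only leaves the MGE pairing out. Alternatives were other scalings, filters, variance models, the repeat number as a block, and leaving out each array.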

Additional observations from a re-analysis of the deposited data

Results flagged for a closer look

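The response of Bdnf to 6 h of KCl differed between cell types by a test of the difference itself. MGE response minus CTX response was -3.61 with 1422168_a_at and -3.70 with 1422169_a_at in WT cultures (limma, adjusted p = 0.00329 and 0.00171), and -4.26 and -3.42 in KO cultures (adjusted p = 0.00122 and 0.00295), in the direction of a smaller response in MGE cultures in 4 of 4 values. The mean of 11 excitatory neuron markers, 6.32 to 7.04 in MGE and 10.87 to 11.28 in CTX arrays, moved with this difference, while Bcl11b and Cux2 of that list were bright in both cell types. Their part in it was not tested.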

How the results depend on the processing

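Bdnf gave 66 results, 2 probe sets in each of 33 comparisons, of which 30 were called, and 20 of those kept direction and call in every alternative run, among them both CTX rises at 6 h and all 4 cell type differences of the 6 h response. Median centring, cyclic loess, 1 probe set per gene and eBayes with trend and robust changed no Bdnf call or direction. Without the filter the MGE minus CTX difference in KO at 0 h (1422168_a_at, -1.16) was not called (adjusted p = 0.0567). With only the arrays of 1 cell type, the changes in MGE KO became called (1.17 at 6 h and 0.56 from 1 to 6 h with 1422168_a_at, 0.84 at 6 h with 1422169_a_at), and those in CTX WT at 1 h (2.58 and 2.45) and from 1 to 6 h in CTX KO (1.29, 1422169_a_at) were no longer called. With the repeat number as a block (replicate block) in both cell types, or in CTX cultures only, which was chosen after seeing the data, 6 values became called: 1.17 and 0.84 in MGE KO at 6 h, and the cell type differences of the 1 h response (-2.39 and -2.31 in WT, -2.55 and -2.79 in KO). The block changed no other Bdnf call. With the mean of both probe sets, MGE WT from 1 to 6 h was 1.03 and not called, MGE WT at 6 h was 1.20 and called, and values that were not called changed sign: -0.0075 for the CTX genotype term at 6 h, 0.037 and -0.39 for MGE KO minus WT at 1 and 6 h, -0.19 for the MGE genotype term and -0.18 for the cell type by genotype term at 6 h. With values below the array median set to it, calls were lost for MGE WT at 6 h (0.81) and from 1 to 6 h (0.81) and for MGE minus CTX at 0 h (-0.44 and -0.49 in WT, -0.23 and -0.30 in KO), the KO cell type difference at 1 h was called (-2.99, 1422169_a_at), and MGE KO at 6 h (-0.0073) and the CTX genotype term at 6 h (-0.17) changed sign. In 16 of the 66 results all compared arrays lay below the median, so this setting gave no value. The cause of these changes was not tested.

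Leaving out each array in turn gave these lowest and highest values. With 1422168_a_at, values that were called ranged from 1.58 to 1.96 for MGE WT at 6 h, 1.56 to 1.61 from 1 to 6 h, 1.80 to 3.35 for CTX WT at 1 h, -1.83 to -0.89 for MGE minus CTX in WT at 0 h and -1.71 to -0.62 in KO. Values that were not called ranged from -0.0057 to 0.38 for MGE WT at 1 h, 1.13 to 1.21 for MGE KO at 6 h (called without either CTX WT array of 1 h), -0.38 to 0.0073 for MGE KO minus WT at 0 h, -0.93 to 0.16 and -0.58 to 0.96 for CTX KO minus WT at 0 and 1 h, and -0.20 to 1.35 and -0.50 to 0.59 for the CTX genotype terms at 1 and 6 h. With 1422169_a_at, called values ranged from 1.80 to 3.10 for CTX WT at 1 h, 1.22 to 2.52 from 1 to 6 h and 0.95 to 1.62 for CTX KO from 1 to 6 h. Values that were not called ranged from -0.011 to 0.29 and -0.10 to 0.48 for MGE WT and KO at 1 h, -0.50 to 0.084, -0.40 to 0.085 and -0.10 to 0.13 for MGE KO minus WT at 0, 1 and 6 h, -0.45 to 0.15, -0.28 to 1.02 and -0.75 to 0.32 for CTX KO minus WT, -0.24 to 0.34 and -0.072 to 0.51 for the MGE genotype terms at 1 and 6 h, -0.13 to 1.18 and -0.60 to 0.48 for the CTX ones, and -0.26 to 0.81 for the cell type by genotype term.

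Of the counts over all probe sets, 1 probe set per gene gave fewer calls because fewer were tested (4362 in place of 9433 for CTX WT at 6 h, 107 in place of 614 at 1 h). Without repeat 1 of MGE WT at 0 h, the counts for MGE WT at 1 h, the MGE genotype term and the WT cell type term at 6 h were larger. In these fits repeat 2, the lowest MGE array for Mettl15, Lin7c and Lgr4, alone stood for the group. The larger counts were therefore not read as differences between groups. With the block in both cell types, 66 in place of 26 were called between CTX KO and WT at 6 h, and 4 in place of 2 adaptors in MGE WT at 6 h. With 2 arrays per group and dim MGE signal, small differences of Bdnf could not be measured.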
